A study of Mus musculus with 21 samples.

Results

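The interferon-stimulated genes are genes that cells switch on when an interferon, an antiviral cytokine, binds its receptor. 41 such genes, listed by name and chosen with earlier results of these data known, were matched by gene symbol in 3 deposited tables. A row counted only if its gene identifier named the same gene. The tables came from one mouse study of iron and eosinophil development. 40 of the 41 were found among 15945 genes in the table of marrow eosinophils with progenitors and 40 among 16645 genes in the table of cultured eosinophils, where Mx1 was not listed. In the table of cytokine-treated eosinophils, 37 of the 41 were found by symbol among 22274 genes. A further 12 rows there carried the symbol of a member but the identifier of another gene, and were left out. Gbp3, Gbp7, Ifi47 and Igtp were found there only by Ensembl identifier, under the symbol of another family member, and were kept out of the counts for that table.

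Every library came from wild type (WT) mouse cells. The cultured cells (bone marrow-derived eosinophils, BMDEs) came from marrow kept in the progenitor cytokines SCF and FLT3-Ligand (100 ng/mL of each) until day 4 and then with IL-5 (10 ng/mL), the cytokine that drives eosinophil maturation. On day 4 the cells received 5 μM DFO (deferoxamine, which binds iron and withholds it from cells; 3 libraries), 10 μM FAC (ferric ammonium citrate, an iron source; 4 libraries) or neither (control, 2 libraries), and RNA was taken on day 7. A second table held 3 resting eosinophil libraries and 3 libraries of eosinophils given cytokines of type 2 immunity (T2). The T2 labels list IL-4 and GM-CSF throughout, with IL33, IL34 and IL35 for replicates 1, 2 and 3, and the 3 were used as 1 group; the run of 3 consecutive numbers may be a labelling error, so which of these cytokines each library received is uncertain, and the time and doses are not given in the labels. The last table held 3 libraries of untreated bone marrow eosinophils and 3 of untreated granulocyte-macrophage progenitors (GMPs), the marrow cells from which granulocytes arise. How cells other than BMDEs were isolated is not given in the sources used here, and nothing says that libraries of a group came from separate mice or cultures, so p-values measure the spread between libraries, which may be technical.

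As background, type I interferons bind the receptor pair IFNAR1 and IFNAR2, whose kinases JAK1 and TYK2 phosphorylate STAT proteins. A complex of these with IRF9 attaches to interferon-stimulated response elements (ISREs) in the promoters of target genes. Type II interferon acts through IFNGR1 and IFNGR2, and its target promoters carry gamma-activated sites (GAS). Many target genes keep a low level without infection, and plasmacytoid dendritic cells, a cell type that makes much type I interferon, also carry high levels of IRF7, TLR7 and TLR9. The 41 genes were ordered by role: nucleic acid sensors, transcription factors, the IFIT and OAS families, other antiviral effectors, ISG15 with ubiquitin and ADP-ribose enzymes, interferon-inducible GTPases and PYHIN proteins.

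The genes lie on 15 chromosomes of GRCm38, with several family clusters. Ifit1, Ifit2 and Ifit3 are neighbours on chromosome 19, the 5 OAS genes are on chromosome 5, Gbp2, Gbp3 and Gbp7 are neighbours on chromosome 3, and Rsad2 and Cmpk2 are neighbours on chromosome 12. Dtx3l and Parp9 on chromosome 16 overlap at their ends (35926515 to 35939027 and 35938470 to 35972621), and the strand setting of the counting is not given, so reads in the overlap could belong to either. RefSeq promoter windows (GRCm38.p6) were at hand for 33 of the 41. Each ran from 250 bases before to 50 after an annotated start, which can lie inside the gene. There was no entry for Oas2, Mx1, Usp18, Dhx58, Parp9, Parp14, Ifi204 and Zbp1. The core of the ISRE was searched as GAAANNGAA on both strands, and the core of the GAS as TTCNNNGAA, which reads the same on both. The ISRE core was in the window of 20 of 33 members (60.6%) and of 2638 of 27025 genes in the whole promoter table (9.76%). 2 or more matches were held by 12 of the 33 members and by 0.736% of all genes. Matches that share bases were counted separately. The GAS core was in 8 of 33 members (24.2%) against 9.55% of all genes. The 2 cores can overlap, since TTC and GAA open or close both. A match is only a run of letters in this window, and no match says nothing on the factors.

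The 6 promoters below belong to the members with an entry that fell most between DFO and FAC, and are shown because their levels differed most between the 2 treatments. Capitals mark the ISRE core as GAAANNGAA or its reverse complement TTCNNTTTC.
Ifi44 (chr3:151749861-151750160, minus strand): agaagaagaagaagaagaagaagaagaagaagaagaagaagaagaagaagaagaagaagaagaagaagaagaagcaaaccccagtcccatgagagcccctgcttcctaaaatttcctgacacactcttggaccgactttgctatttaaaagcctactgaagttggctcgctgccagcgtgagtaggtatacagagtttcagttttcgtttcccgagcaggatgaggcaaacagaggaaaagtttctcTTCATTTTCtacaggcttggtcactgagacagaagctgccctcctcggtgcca
Ifit3 (chr19:34583279-34583578, plus strand): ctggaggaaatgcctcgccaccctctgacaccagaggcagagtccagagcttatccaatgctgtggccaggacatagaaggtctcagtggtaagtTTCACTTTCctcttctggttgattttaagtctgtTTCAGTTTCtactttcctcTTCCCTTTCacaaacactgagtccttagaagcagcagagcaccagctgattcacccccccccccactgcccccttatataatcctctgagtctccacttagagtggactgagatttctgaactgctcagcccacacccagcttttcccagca
Ifit1 (chr19:34640639-34640938, plus strand): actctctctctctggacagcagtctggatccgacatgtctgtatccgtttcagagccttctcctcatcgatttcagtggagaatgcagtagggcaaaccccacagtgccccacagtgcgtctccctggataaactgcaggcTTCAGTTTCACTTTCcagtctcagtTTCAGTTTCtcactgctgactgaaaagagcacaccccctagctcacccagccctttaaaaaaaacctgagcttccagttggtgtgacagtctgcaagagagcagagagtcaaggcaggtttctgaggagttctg
Ifit2 (chr19:34550444-34550743, plus strand): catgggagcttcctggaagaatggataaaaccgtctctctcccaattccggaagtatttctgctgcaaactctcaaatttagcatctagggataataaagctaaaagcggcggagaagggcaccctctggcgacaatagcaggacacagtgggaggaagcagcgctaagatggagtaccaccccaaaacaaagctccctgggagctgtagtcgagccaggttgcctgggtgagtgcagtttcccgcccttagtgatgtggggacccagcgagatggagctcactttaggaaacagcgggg
Rnf213 (chr11:119389849-119390148, plus strand): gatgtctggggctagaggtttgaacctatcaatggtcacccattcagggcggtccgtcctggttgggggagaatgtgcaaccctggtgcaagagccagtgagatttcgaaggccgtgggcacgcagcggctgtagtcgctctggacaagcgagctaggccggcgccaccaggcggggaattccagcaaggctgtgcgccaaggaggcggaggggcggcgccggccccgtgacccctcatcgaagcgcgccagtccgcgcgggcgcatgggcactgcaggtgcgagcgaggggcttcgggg
Rsad2 (chr12:26456403-26456702, minus strand): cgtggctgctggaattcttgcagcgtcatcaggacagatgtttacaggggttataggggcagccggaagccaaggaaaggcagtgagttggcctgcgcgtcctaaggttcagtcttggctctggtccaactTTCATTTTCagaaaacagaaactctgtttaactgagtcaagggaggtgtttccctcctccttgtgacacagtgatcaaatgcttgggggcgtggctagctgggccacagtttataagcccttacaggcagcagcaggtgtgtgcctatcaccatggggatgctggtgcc

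Ifit3 and Ifit1 each hold 3 matches before the start used for the window, the first 155 bases before it in Ifit3. The pair of Ifit1 matches at the left share bases. The Ifit3 window lies inside the gene as annotated, which begins at 34583119, so its matches are not upstream of the whole gene. The starts used for Ifit2 and Rnf213 also lie inside the genes, which begin at 34550550 and 119389950. Ifi44 holds its match across the start itself, and Rsad2 holds 1 match 119 bases before the start. Ifit2 and Rnf213 hold none in the windows used, and their falls are given below beside those of Ifit1 and Rsad2. Over the members with a window, the median log2 fold change of FAC against DFO was -1.24 for the 20 with an ISRE core and -1.16 for the 13 without.

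Total counts were 16809789 to 17991878 per BMDE library, 16073573 to 18995878 per library of the T2 table and 25857382 to 28992668 per library of the eosinophil and GMP table. Levels below are counts scaled to a common library size with TMM factors (CPM); where levels of different genes are compared, TPM, which also divides by transcript length, is used. Several libraries stood apart from others of their group in a way that followed transcript length. In FAC library 6 the median log2 level against the other FAC libraries was 0.40 for the shortest quartile of transcripts and -0.41 for the longest, while every DFO and control library stayed within 0.03 of 0. In bone marrow eosinophil library 3 the same medians were 0.33 and -0.31, and in eosinophil library 1 they were -0.28 and 0.28; FAC library 7 leaned the other way from FAC library 6, at -0.24 and 0.26, and GMP libraries 2 and 3 were at -0.17 and 0.21 and at 0.16 and -0.19. As a check on the treatments, Tfrc, the transferrin receptor gene whose mRNA is stabilised when iron is short, was at 478, 486 and 478 CPM with DFO, 493 and 476 in the controls and 313, 313, 339.9 and 316 with FAC. The DFO and control libraries overlapped for Tfrc and all FAC libraries were lower (log2 fold change of FAC against control -0.60, SE 0.07, adjusted p = 0.00178).

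In BMDEs the interferon-stimulated genes were highest with the chelator, intermediate in the controls and lowest with added iron. All 40 measured members fell in FAC against DFO (edgeR quasi-likelihood F test, adjusted p under 0.05), beside 24.7% of the 12607 genes tested, and none rose, beside 23.5%. Changes are log2 fold changes throughout, with the first-named group over the second. The median over the members was -1.23 (range -2.84 to -0.33), against -0.01 over all genes. Of the 40 members 28 fell at least 2-fold. Over all 12607 genes, 1262 were called with at least a 2-fold change in either direction. With library totals and no scaling factors all 40 fell as well, while the split over all genes went from 2959 higher and 3120 lower to 1921 and 4015 and the median of all genes to -0.14. In 39 of 40 the group means ran DFO above control above FAC with no overlap of DFO and FAC libraries, a pattern met by 26.7% of all genes; the reverse order was met by 24.3% of genes and by no member. Gbp7 was the exception, with control and DFO means of 35.6 and 35.4 CPM. The 40 genes took 0.332% to 0.345% of all counts in the DFO libraries, 0.216% to 0.227% in the controls and 0.131% to 0.147% with FAC. In bulk RNA, fewer cells of a type and less RNA per cell cannot be told apart.

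**Figure D1:**
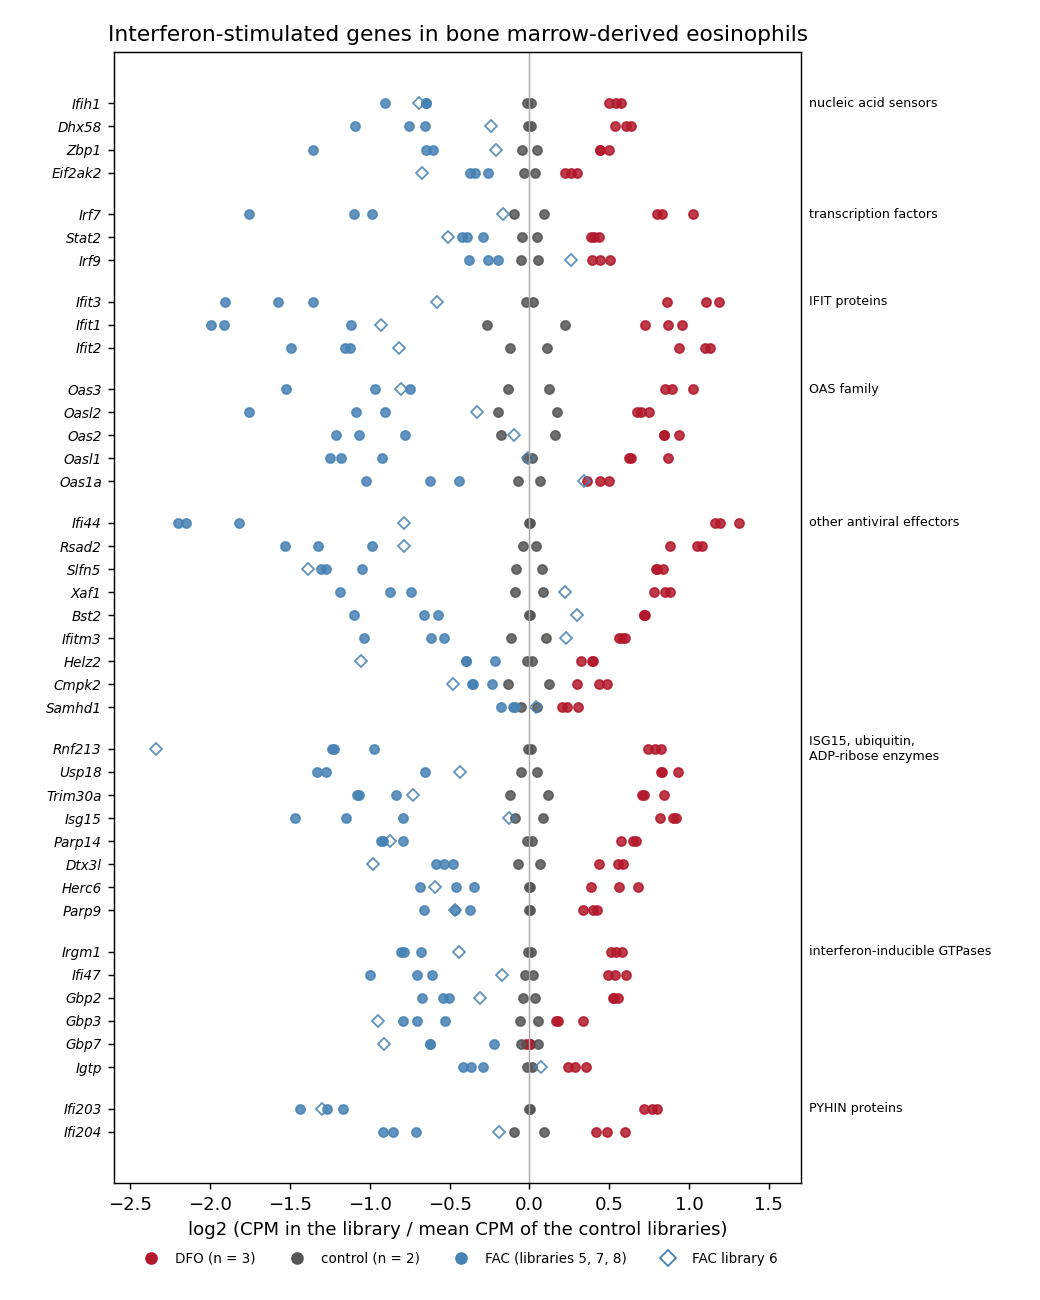
Each row is 1 member and each point 1 BMDE library, placed by the log2 ratio of its CPM to the mean CPM of the 2 control libraries; colours mark DFO, control and FAC, and the open diamond is FAC library 6. DFO points lie to the right of the FAC points in all 40 rows, and FAC library 6 lies to the right of the other FAC libraries in most rows of short transcripts.

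The nucleic acid sensors detect foreign or misplaced RNA and DNA, and all 4 fell from DFO to FAC. Ifih1, which encodes the long double-stranded RNA sensor MDA5, was at 27.2, 27.9 and 26.5 CPM with DFO, 18.9 and 18.6 in the controls and 10.0, 11.6, 11.97 and 11.9 with FAC. Its 3 groups did not overlap, and it fell in FAC against DFO by 1.26 on the log2 scale (SE 0.08, adjusted p = 5.27e-06). Dhx58, encoding the helicase LGP2 that tunes this sensing, changed by -1.25 (SE 0.16, adjusted p = 0.000232), and Zbp1, a receptor for left-handed nucleic acid helices, by -1.11 (SE 0.20, adjusted p = 0.00172). Eif2ak2, encoding the RNA-activated kinase PKR that halts translation, changed least of the 4, by -0.66 (SE 0.09, adjusted p = 0.000451).

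All 3 transcription factors of the list fell in the same comparison. Irf7, which drives the transcription of type I interferon genes, was at 104, 91.2 and 89.2 CPM with DFO, 54.6 and 48.0 in the controls and 24.0, 45.7, 15.1 and 25.9 with FAC. The FAC libraries all lay below both other groups, but FAC library 6 was within 3 CPM of the lower control. Irf7 fell by 1.78 (SE 0.29, adjusted p = 0.000935), with 0.89 (SE 0.35, adjusted p = 0.138) for DFO and -0.89 (SE 0.32, adjusted p = 0.144) for FAC, each against control, neither past the threshold. Stat2 and Irf9, parts of the ISRE-binding complex, fell by 0.81 and 0.57 in FAC against DFO.

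The IFIT proteins bind viral RNA and block its translation, and they fell as a group with the lowest median of any role (-2.26). Ifit3 was at 30.0, 31.7 and 25.4 CPM with DFO, 13.7 and 14.2 in the controls and 5.45, 9.30, 3.71 and 4.68 with FAC. Ifit1 was at 12.2, 12.97 and 11.01 CPM with DFO, 7.80 and 5.56 in the controls and 1.78, 3.50, 1.68 and 3.08 with FAC. Ifit2 was at 49.5, 50.7 and 44.1 CPM with DFO, 24.96 and 21.2 in the controls and 10.4, 13.1, 8.20 and 10.6 with FAC. For each of the 3 the DFO, control and FAC libraries were fully separate. The log2 fold changes of FAC against DFO were -2.33 (SE 0.24, adjusted p = 7.03e-05) for Ifit3, -2.26 (SE 0.23, adjusted p = 6.94e-05) for Ifit1 and -2.19 (SE 0.14, adjusted p = 4.89e-06) for Ifit2. Ifit3 has a near-identical copy, Ifit3b, and reads shared by such copies were divided by the authors' estimate, so the split between them is uncertain.

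The OAS enzymes make the oligoadenylate messenger that activates RNase L, which cuts viral and cellular RNA; all 5 family members fell (median -1.60). Oas3 was at 58.1, 51.4 and 53.2 CPM with DFO, 31.1 and 26.1 in the controls and 14.6, 16.4, 9.94 and 17.0 with FAC. Oas2 was at 42.8, 40.0 and 40.0 CPM with DFO, 24.96 and 19.7 in the controls and 10.7, 20.9, 9.64 and 13.01 with FAC. Oasl2, an OAS-like protein, was at 62.4, 60.3 and 59.2 CPM with DFO, 41.9 and 32.5 in the controls and 17.5, 29.7, 11.01 and 19.9 with FAC. Oas3 and Oasl2 separated the 3 groups, while FAC library 6 reached into the control range for Oas2. Oas3 changed by -1.90 (SE 0.16, adjusted p = 2.1e-05), Oasl2 by -1.64 (SE 0.25, adjusted p = 0.000772) and Oas2 by -1.60 (SE 0.23, adjusted p = 0.000444). Oasl1, which dampens translation of Irf7 mRNA, fell by 1.46. Oas1a showed the weakest call of all 40 members (-0.78, SE 0.26, adjusted p = 0.0307), and it alone lost that call when 1 library was left out, with adjusted p from 0.051 to 0.0888 in 6 such fits: without FAC library 5, 7 or 8, or without DFO library 9, 11 or 12. Oas1a has several close copies, so its reads are also uncertain.

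The other antiviral effectors spanned the widest range, from Ifi44 to Samhd1. Ifi44, a cytoplasmic antiviral protein, was at 13.8, 13.5 and 15.03 CPM with DFO, 6.03 and 6.07 in the controls and 1.36, 3.50, 1.32 and 1.71 with FAC. Rsad2, encoding viperin, which makes a chain-ending nucleotide, was at 29.7, 30.4 and 26.4 CPM with DFO, 14.8 and 14.0 in the controls and 5.74, 8.34, 4.97 and 7.25 with FAC. Slfn5, of the Schlafen family, was at 133, 136 and 132 CPM with DFO, 80.6 and 72.1 in the controls and 30.9, 29.2, 31.5 and 36.8 with FAC. All 3 genes separated DFO, control and FAC libraries without overlap, and they changed by -2.84 (SE 0.26, adjusted p = 3.26e-05), -2.13 (SE 0.15, adjusted p = 8.61e-06) and -2.06 (SE 0.09, adjusted p = 7.85e-07) in FAC against DFO. Samhd1, which breaks down deoxynucleotides, fell by only 0.33 (SE 0.07, adjusted p = 0.00434). Between these stood Xaf1 (-1.38), a pro-apoptotic partner of XIAP, Bst2 (-1.14), the tetherin that holds budding virus at the surface, Ifitm3 (-0.99), which blocks viral fusion, Helz2 (-0.86), a helicase, and Cmpk2 (-0.76), a nucleotide kinase. Xaf1, Bst2 and Ifitm3 in FAC library 6 lay above both controls.

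ISG15 is a ubiquitin-like tag, and Usp18, Herc6, Trim30a, Rnf213, Dtx3l and the ADP-ribose enzymes Parp9 and Parp14 attach, remove or read such tags; all 8 fell. Rnf213, a very large ubiquitin ligase, was at 401, 425 and 413 CPM with DFO, 242 and 238 in the controls and 103, 47.3, 122 and 102 with FAC. Usp18, which removes ISG15 and restrains the receptor IFNAR2, was at 19.3, 20.7 and 19.3 CPM with DFO, 11.2 and 10.5 in the controls and 4.5, 8.04, 4.31 and 6.91 with FAC. Trim30a was at 123, 134 and 122 CPM with DFO, 80.8 and 68.6 in the controls and 35.6, 45.0, 35.3 and 41.8 with FAC. In these 3 genes no library of one group entered the range of another. Isg15 itself was at 20.3, 20.1 and 18.9 CPM with DFO, 11.4 and 10.1 in the controls and 4.86, 9.85, 3.89 and 6.22 with FAC. Parp14 was at 166, 175 and 177 CPM with DFO, 113 and 111 in the controls and 59.1, 61.1, 58.7 and 64.5 with FAC. Isg15 in FAC library 6 came within 1 CPM of the lower control, while the Parp14 groups were far apart. The changes of FAC against DFO were -2.15 (SE 0.25, adjusted p = 0.000138) for Rnf213, -1.73 (SE 0.19, adjusted p = 9.81e-05) for Usp18, -1.68 (SE 0.10, adjusted p = 4.31e-06) for Trim30a, -1.67 (SE 0.24, adjusted p = 0.000518) for Isg15 and -1.51 (SE 0.06, adjusted p = 7.72e-07) for Parp14. Herc6, the main ISG15 ligase of the mouse, fell by 1.06, and the paired genes Dtx3l and Parp9 fell by 1.16 and 0.87.

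The interferon-inducible GTPases attack the membranes of intracellular microbes; many answer more to type II than to type I interferon, and 6 of 6 fell, with a median of -1.0. Irgm1, a regulator of the family, was at 58.3, 57.1 and 59.8 CPM with DFO, 39.7 and 40.3 in the controls and 22.9, 29.5, 23.2 and 25 with FAC. Its groups did not overlap (-1.22, SE 0.09, adjusted p = 1.08e-05 in FAC against DFO). Ifi47 and Gbp2 fell by 1.14 and 1.04, Gbp3 by 0.96, and Gbp7 and Igtp by 0.57 and 0.53. Gbp7 showed no rise with DFO over control (-0.01, SE 0.16, adjusted p = 0.989). Of the PYHIN proteins, which bind DNA, Ifi203 was at 101, 98.7 and 95.1 CPM with DFO, 57.7 and 58.1 in the controls and 21.4, 23.5, 24.1 and 25.8 with FAC. Ifi203 showed clean separation of the groups and a change of -2.05 (SE 0.07, adjusted p = 4.15e-07), and its neighbour Ifi204 fell by 1.14.

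Levels per length placed Ifitm3 and Bst2 far above the IFIT genes. In TPM (mean ± SD, in the order DFO, control, FAC), Ifitm3 was at 802 ± 7.33, 506 ± 50.5, 312 ± 71.1, Bst2 at 406 ± 6.15, 233 ± 1.32, 143 ± 39.7 and Samhd1 at 201 ± 9.12, 160.1 ± 6.53, 129.8 ± 8.80. Irf7, next in the DFO and control means but not with FAC, was at 101 ± 7.55, 51.7 ± 4.36, 22.9 ± 7.34, while Ifi44 was at 9.06 ± 0.563, 3.67 ± 0.0566, 0.980 ± 0.352 and Ifit1 at 8.39 ± 0.701, 4.41 ± 1.02, 1.38 ± 0.400. The ranking by level was thus not the ranking by fold change, since Samhd1 was among the most abundant members and moved least.

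Set against the controls, 18 of 40 members rose with DFO and none fell, beside 6.46% and 5.12% of all genes, with a median log2 fold change of 0.59 over the members and 0.00 over all genes. Ifi44 (1.22, SE 0.28, adjusted p = 0.0242), Ifit2 (1.06, SE 0.16, adjusted p = 0.0047), Ifit3 (1.06, SE 0.28, adjusted p = 0.0403) and Rsad2 (1.01, SE 0.18, adjusted p = 0.00789) rose at least 2-fold. Over all 12607 genes, 195 were called with at least a 2-fold change in either direction. With FAC 19 of 40 fell and none rose, beside 4.28% and 1.76% of all genes, with a median of -0.66. Library totals gave 26 lower members, and over all genes moved the split from 222 higher and 539 lower to 154 and 806. Ifi44 (-1.62, SE 0.30, adjusted p = 0.0174), Ifit1 (-1.41, SE 0.27, adjusted p = 0.019), Rnf213 (-1.36, SE 0.27, adjusted p = 0.0222), Ifi203 (-1.29, SE 0.08, adjusted p = 0.000238) and Ifit3 (-1.27, SE 0.28, adjusted p = 0.0302) were among the 8 that fell at least 2-fold. Over all genes, 142 were called with a change of that size in either direction in FAC against control. The DFO libraries lay wholly above the controls in 39 of 40 members, beside 32.8% of all genes, and the FAC libraries wholly below them in 31, beside 19.0%. 30 members had all 3 groups apart in that order, beside 13.1% of all genes; the others were Bst2, Gbp7, Ifitm3, Igtp, Irf9, Oas1a, Oas2, Oasl1, Samhd1 and Xaf1. Both comparisons use the same 2 control libraries.

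The number of calls against control rested on single libraries. For DFO against control the 18 became 38 without FAC library 6, which belongs to neither group, and 5 or 3 without control library 1 or 2, and 10, 9 and 9 without DFO library 9, 11 or 12. For FAC against control the 19 became 39 without FAC library 6, 9 without FAC library 5, and 3 or 6 without control library 1 or 2. Slfn5, Ifi203 and Parp14 kept the call in both comparisons in every such fit. For FAC against DFO, 39 or 40 members were called in each. In FAC library 6 the level relative to the other FAC libraries was higher for 18 of the 20 members with transcripts shorter than the median of 3651 bases (median log2 ratio 0.66) and for 11 of the 20 longer ones (0.02); without that library the median change of FAC against DFO was -1.36.

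**Figure D2:**
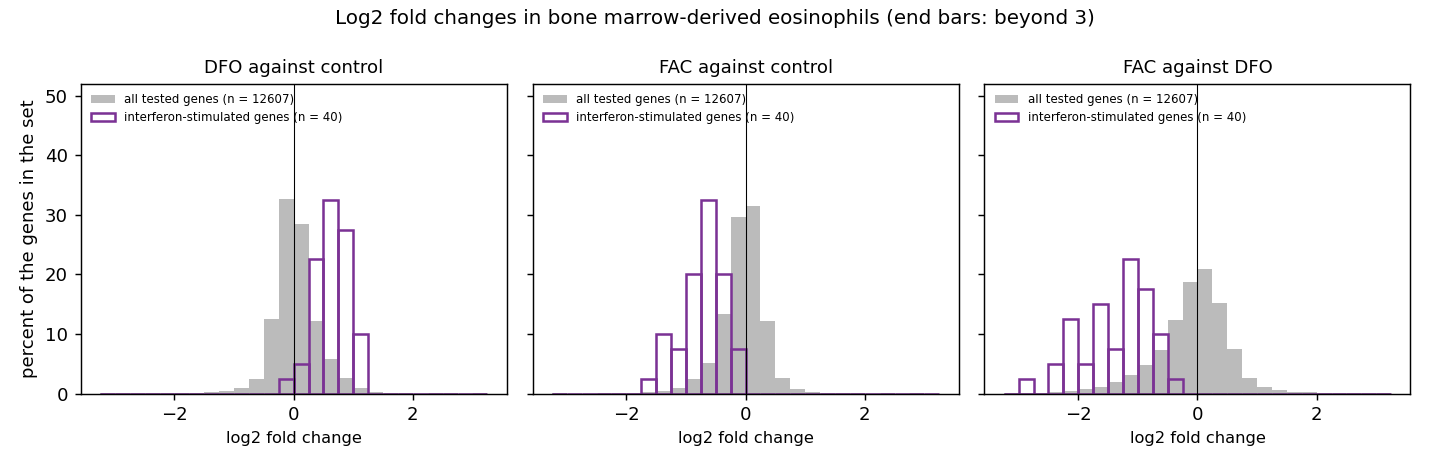
The bars give the percent of genes in each bin of 0.25 on the log2 scale, grey for all 12607 tested genes and outlined for the 40 members, in the 3 BMDE comparisons. The members sit to the right of 0 for DFO against control, except Gbp7, and to the left of 0 in both comparisons with FAC first.

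The wider interferon pathway in BMDEs was read from lists of genes that are not members. Of 59 tested further interferon-stimulated genes, 46 fell and 2 rose in FAC against DFO (median -0.92), the 2 being Ifitm1 (0.79) and Ly6e (0.57), named after their values were seen. Over all tested genes 24.7% fell and 23.5% rose in that comparison. These shares also stand beside the FAC against DFO counts of the BMDE pathway and marker lists below. Against control, 23 of the 59 rose with DFO and 19 fell with FAC, beside 6.46% and 4.28% of all genes, with none in the other direction. Ifit3b (-2.64), Ifit1bl1 (-2.36), Cxcl10 (-2.32), a chemokine, and Ifi205 (-2.23) fell most. No interferon gene was abundant enough to test: of 21 sought, 4 were listed, and Ifnb1 was at 0.0572, 0.0559 and 0.0567 CPM with DFO and 0 in every control and FAC library, which is about 1 read in each DFO library. Ifng, encoding type II interferon, did not pass 0.118 CPM in any BMDE library. These levels do not allow a statement on whether interferon differed between the groups.

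Of 9 receptor and kinase genes, 6 fell and none rose. Ifnar1 was at 163, 166 and 170.0 CPM with DFO, 128 and 126 in the controls and 102, 84.5, 104 and 101 with FAC. Ifnar2 was at 154, 151 and 151 CPM with DFO, 113 and 114 in the controls and 89.0, 98.6, 88.1 and 91.4 with FAC. Both type I receptor genes separated the 3 groups, changing by -0.77 (SE 0.08, adjusted p = 6.38e-05) and -0.73 (SE 0.06, adjusted p = 1.99e-05) in FAC against DFO. Ifnlr1, for type III interferon, fell by 1.63 and the kinase gene Jak2 by 0.41, whereas the type II receptor gene Ifngr1 was at 152, 152 and 155 CPM with DFO, 154 and 151 in the controls and 139.7, 145, 127 and 141 with FAC (-0.15, SE 0.06, adjusted p = 0.0731). Of 9 STAT and IRF genes outside the member list, 7 fell and 1 rose. Irf8, which plasmacytoid dendritic cells and monocytes need, fell by 1.70, Irf5 by 0.73 and Irf1 by 0.58.

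Sensors and adaptors upstream of interferon included 9 that fell among 13, and none that rose. Tlr9 (-2.01, SE 0.17, adjusted p = 2.1e-05) and Tlr7 (-1.87, SE 0.10, adjusted p = 1.79e-06), endosomal receptors for DNA and RNA, fell most, followed by Tlr3 (-0.95) and Unc93b1 (-0.95), the chaperone of these receptors. Negative regulators were divided, with 5 lower and 2 higher of 10. Socs1, an inhibitor of JAK kinases, ran the other way from the members, at 20.1, 20.6 and 19.1 CPM with DFO, 37.5 and 36.8 in the controls and 54.5, 77.3, 44.2 and 54.6 with FAC. No FAC library overlapped the controls, no control overlapped DFO, and Socs1 rose by 1.53 in FAC against DFO (SE 0.17, adjusted p = 9.99e-05). Ptpn2, a STAT phosphatase, rose by 0.42, while Trex1 fell by 0.74 and Adar by 0.64.

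Summed levels of dendritic cell, neutrophil, progenitor, and mast cell and basophil markers, like the interferon-stimulated genes, were highest with DFO. Those of monocyte and macrophage, B cell, T and NK cell, erythroid and eosinophil markers were not. The part of any of these in the result was not tested. The summed level of 12 plasmacytoid dendritic cell markers was 1206 to 1244 CPM with DFO, 646 to 672 in the controls and 341 to 374 with FAC, and all 12 fell in FAC against DFO (median -1.59), none being at 0. Siglech, a surface receptor of these cells, was at 249.6, 241 and 261 CPM with DFO, 113 and 124 in the controls and 46.6, 53.9, 45.9 and 51.7 with FAC. Ccr9, a homing receptor of the same cells, was at 171, 182 and 184 CPM with DFO, 73.6 and 81.6 in the controls and 28.5, 21.8, 31.9 and 31.6 with FAC. The order of the groups was thus that of the members, with full separation. Conventional dendritic cell markers summed to 1638 to 1746 CPM with DFO, 981 to 1041 in the controls and 621 to 1093 with FAC, with 9 of 10 lower. Neutrophil markers summed to 16840 to 18910 CPM with DFO, 9205 to 11010 in the controls and 6499 to 9375 with FAC, with 11 of 12 lower and Ly6g (named after its value was seen) higher by 2.26. Ltf, a neutrophil granule gene, was at 2166, 2240 and 2013 CPM with DFO, 1099 and 941 in the controls and 565, 641, 559 and 563 with FAC. Monocyte and macrophage markers summed to 2232 to 2341 CPM with DFO, 2338 to 2513 in the controls and 2607 to 3787 with FAC. By gene, 7 were lower and 2 higher of 14 in FAC against DFO (median -0.48), so the sum ran the other way from the median. Csf1r fell by 0.51, and C1qa was not past the threshold (-0.08, SE 0.38, adjusted p = 0.87). B cell markers summed to 106 to 117 CPM with DFO, 183 to 192 in the controls and 110.1 to 137 with FAC, and Cd79a was at 22.4, 22.6 and 18.6 CPM with DFO, 37.3 and 39.0 in the controls and 27.9, 35.3, 22.4 and 27.1 with FAC. Eosinophil markers went the opposite way, at 18880 to 22290 CPM with DFO, 42940 to 43890 in the controls and 58330 to 70650 with FAC, and all 12 rose in FAC against DFO (median 1.49). Against control, 8 plasmacytoid dendritic cell markers rose with DFO and 7 fell with FAC, beside 6.46% and 4.28% of all genes. Of the eosinophil markers 11 fell with DFO and 6 rose with FAC, beside 5.12% and 1.76% of all genes. Progenitor markers summed to 1268 to 1334 CPM with DFO, 949 to 967 in the controls and 741.5 to 863 with FAC. Of the 7 progenitor markers, 6 fell in FAC against DFO. In the same order of groups, mast cell and basophil markers summed to 4480 to 5221, 3348 to 3993 and 3305 to 4323 CPM. T and NK cell markers summed to 41.4 to 50.1, 60.3 to 64.4 and 63.7 to 93.05 CPM. Erythroid markers summed to 19.1 to 20.4, 20.6 to 22.6 and 18.4 to 29.9 CPM.

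**Figure D3:**
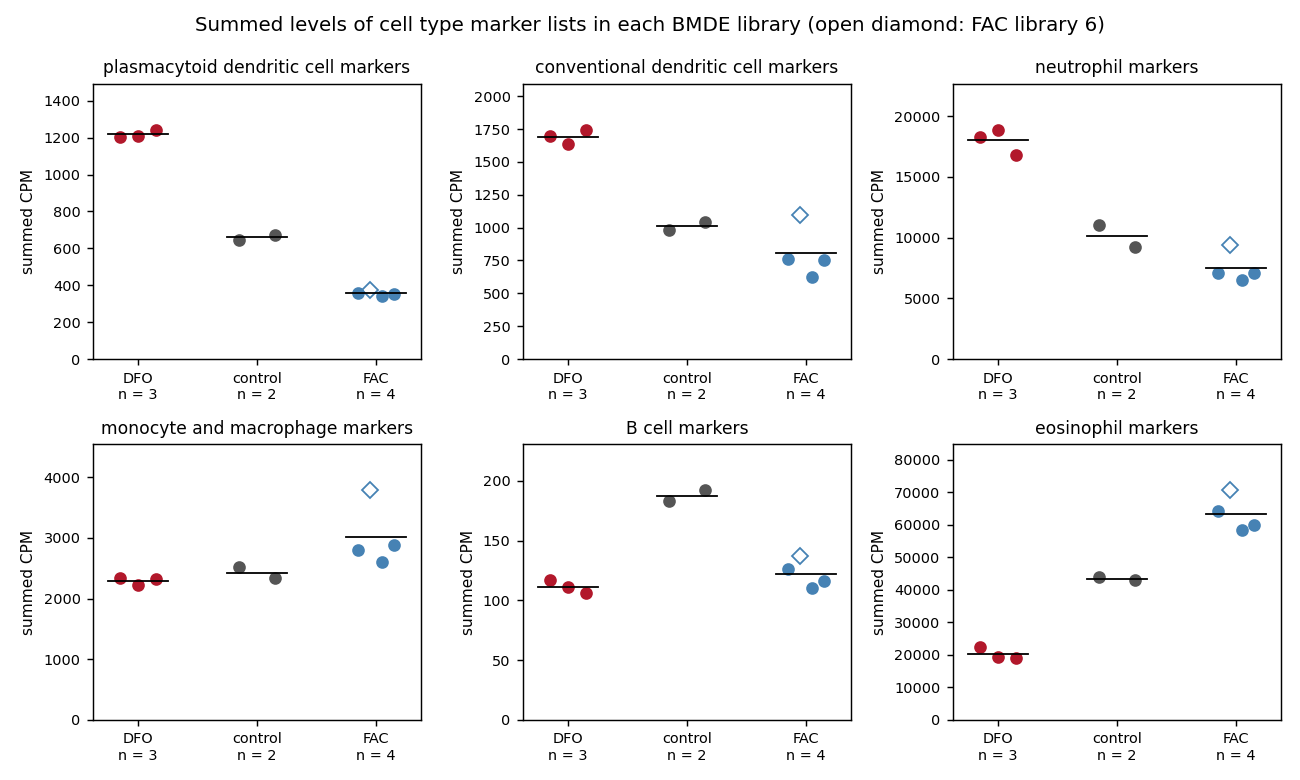
Each point is the summed CPM of a marker list in 1 BMDE library, with a line at the group mean and an open diamond for FAC library 6. Dendritic cell and neutrophil markers were highest with DFO and eosinophil markers highest with FAC.

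Most of the interferon-stimulated genes were lower in eosinophils given type 2 cytokines than at rest, with Zbp1, Isg15, Helz2, Bst2, Eif2ak2 and Irf9 higher. Of 36 members tested, 24 fell and 6 rose in T2 against resting eosinophils, beside 37.9% and 38.2% of 11345 genes, and the median log2 fold change was -0.56 against -0.01 over all genes. Over all genes the split of 4329 higher and 4303 lower became 3690 and 4927 with upper-quartile scaling, which put the median of all genes at -0.13. With library totals the split was 3160 and 5550, the median of all genes was -0.23, and 5 members were higher and 27 lower; Irf9 lost its call, and Ifih1, Parp9 and Irgm1 were called lower. The 24 and the 6 all had groups without overlap, as did 39.0% of all genes in the lower and 38.8% in the higher direction. Together the 37 matched genes took 0.443% to 0.469% of counts in the resting libraries and 0.202% to 0.213% in the T2 libraries. These shares mostly reflect 1 gene. Samhd1 supplied 55895 of 73508, 62714 of 82464 and 57516 of 75310 of the member counts in the resting libraries. In the T2 libraries it supplied 22121 of 35796, 22984 of 38055 and 25309 of 39856. Ifi44 was under 0.3 CPM in every library and was not tested. Ifih1, Oas1a, Oas2, Irf7, Irgm1 and Parp9 did not pass the threshold.

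The IFIT and OAS families fell in part from very low levels. Ifit3 was at 2.30, 1.28 and 1.27 CPM in the resting libraries and 0.245, 0.243 and 0.391 in the T2 libraries. Oasl1 was at 2.53, 2.09 and 2.48 CPM in the resting libraries and 0.552, 0.425 and 0.391 in the T2 libraries. Mx1, a GTPase that blocks viral replication and is annotated in RefSeq as a transcribed pseudogene on this reference strain, was at 1.63, 1.38 and 1.21 CPM in the resting libraries and 0.307, 0.425 and 0.280 in the T2 libraries. In all 3 the T2 libraries lay below every resting library, although Ifit3 and Mx1 were near 1 CPM even at rest. They changed by -2.42 (SE 0.42, adjusted p = 7e-05), -2.36 (SE 0.32, adjusted p = 6.19e-06) and -2.04 (SE 0.37, adjusted p = 0.000117). Ifit1 was at 0.842, 1.84 and 0.982 CPM in the resting libraries and 0.429, 0.486 and 0.280 in the T2 libraries. Ifit2 was at 1.91, 2.60 and 2.95 CPM in the resting libraries and 0.736, 0.851 and 0.950 in the T2 libraries. Both fell, by 1.62 and 1.54 on the log2 scale. Oasl2, far more abundant, was at 47.6, 47.8 and 46.5 CPM in the resting libraries and 17.7, 21.6 and 20.2 in the T2 libraries and changed by -1.26 (SE 0.07, adjusted p = 1.65e-10).

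Among the effectors, Samhd1 was at 3137, 3201 and 3324 CPM in the resting libraries and 1356, 1397 and 1415 in the T2 libraries. Slfn5 was at 47.8, 45.6 and 50.5 CPM in the resting libraries and 15.9, 19.8 and 16.8 in the T2 libraries. Cmpk2 was at 7.18, 8.32 and 7.22 CPM in the resting libraries and 1.10, 2.07 and 2.40 in the T2 libraries. In all 3 genes every T2 library lay under the lowest resting library, with changes of -1.21 (SE 0.04, adjusted p = 8.7e-14), -1.45 (SE 0.08, adjusted p = 9.6e-11) and -2.02 (SE 0.22, adjusted p = 4.4e-07). Rsad2 was at 4.38, 5.61 and 5.37 CPM in the resting libraries and 2.76, 2.13 and 2.07 in the T2 libraries. Xaf1 was at 2.41, 2.04 and 2.43 CPM in the resting libraries and 1.35, 0.911 and 1.23 in the T2 libraries. They fell by 1.15 and 0.97. Dhx58, of the sensors, was at 31.7, 33.9 and 31.8 CPM in the resting libraries and 10.6, 15.1 and 12.1 in the T2 libraries. Herc6, the ISG15 ligase, was at 8.81, 8.17 and 9.77 CPM in the resting libraries and 2.45, 4.38 and 3.75 in the T2 libraries. Both fell (-1.37 and -1.33).

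Stat2 was at 74.3, 80.4 and 81.4 CPM in the resting libraries and 50.1, 53.7 and 50.4 in the T2 libraries and fell by 0.62 (SE 0.06, adjusted p = 7.64e-08). Gbp2 was at 27.8, 26.5 and 24.9 CPM in the resting libraries and 18.3, 19.8 and 18.2 in the T2 libraries and fell by 0.49. Of the PYHIN genes, Ifi204 was at 5.00, 2.96 and 4.45 CPM in the resting libraries and 2.15, 1.94 and 2.01 in the T2 libraries. Ifi203 was at 8.76, 8.22 and 7.74 CPM in the resting libraries and 4.54, 4.92 and 4.14 in the T2 libraries. Both PYHIN genes fell (-1.02 for Ifi204 and -0.86 for Ifi203). Zbp1 rose more than any other member and was at 10.6, 11.7 and 10.9 CPM in the resting libraries and 49.8, 51.0 and 49.9 in the T2 libraries. All T2 libraries were over 4 times the resting level, a change of 2.18 (SE 0.07, adjusted p = 9.71e-14). Isg15 (0.85), Helz2 (0.80), Bst2 (0.55), Eif2ak2 (0.44) and Irf9 (0.26) also rose. Of the 4 genes found by identifier only, Gbp7 (-0.62) and Gbp3 (-0.55) fell, and Igtp (0.38) and Ifi47 (0.31) rose.

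**Figure D4:**
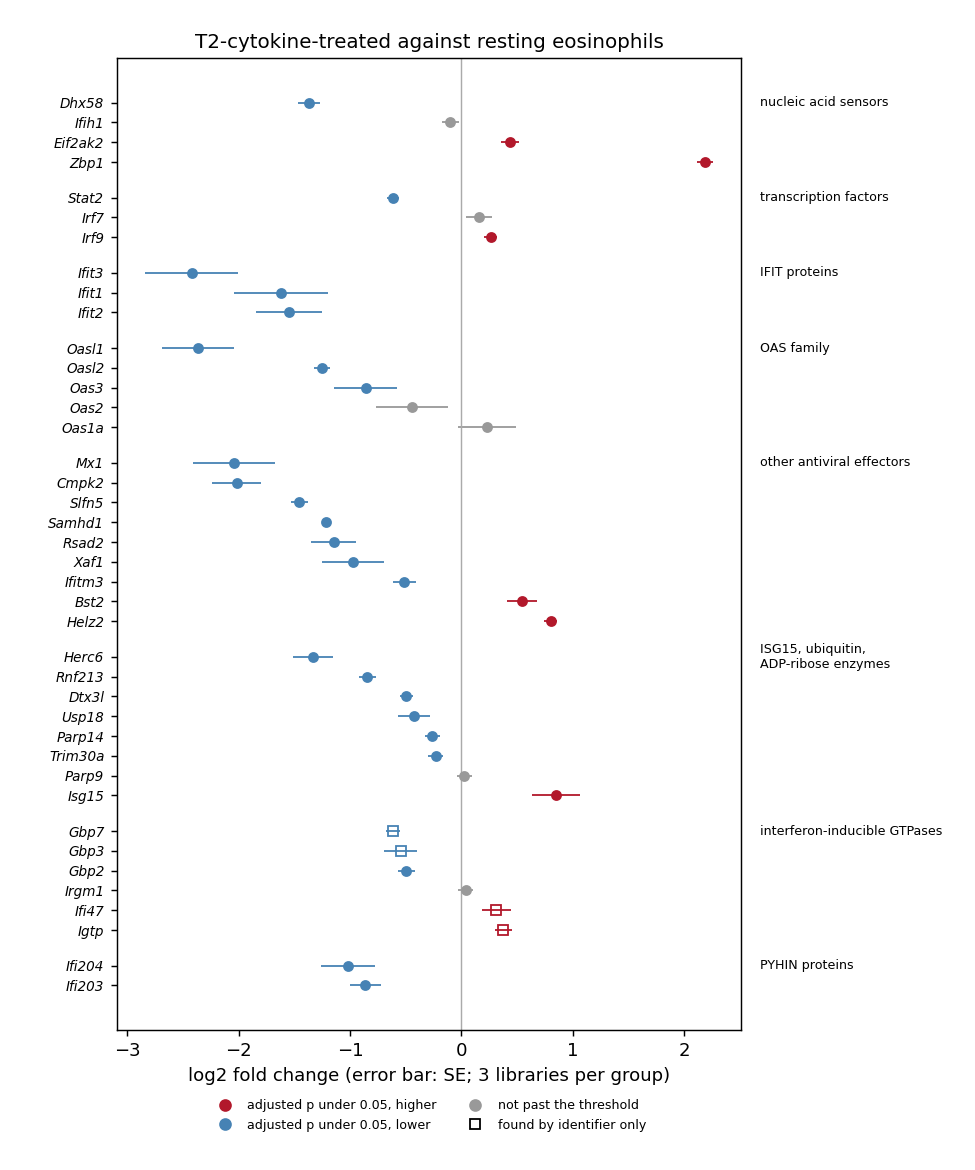
Points give the log2 fold change of each member in T2 against resting eosinophils with its SE, by role; red passed the threshold as higher, blue as lower, grey did not pass, and open squares were found by identifier only. The 3 IFIT genes, Oasl1, Mx1 and Cmpk2 lie furthest left and Zbp1 furthest right.

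The pathway around the members moved in both directions in these cells, as genes at large did. Of 58 further interferon-stimulated genes, 25 fell and 19 rose (median -0.16), beside 37.9% and 38.2% of all genes. These shares also stand beside the other lists of this comparison. Lgals3bp (-1.84) and Rtp4 (-1.78) fell and Cd274 (2.83), the checkpoint ligand gene, and Cxcl10 (2.62) rose. 8 of 10 negative regulators rose and 1 fell. Socs1 was at 15.1, 16.7 and 15.8 CPM in the resting libraries and 195, 205 and 224 in the T2 libraries, a rise of 3.71 (SE 0.07, adjusted p = 1.78e-16), and Socs3, Ptpn2 and Irf2bp2 rose by 3.06, 1.89 and 1.42. Ifnar1 was at 124, 128 and 118 CPM in the resting libraries and 198, 214 and 191 in the T2 libraries and rose by 0.70, while Ifnar2 (-0.02) and Ifngr1 (0.01) were not past the threshold. Ifngr2 rose by 1.11 and Jak1 fell by 0.63. Irf1 fell by 0.51, and Irf5 and Irf4 rose by 1.74 and 1.68. Tlr9 (4.82) and Ikbke (4.21) rose and Tlr8 (-2.88) and Tlr7 (-1.56) fell. Ifnb1 was at 0 in all 6 libraries and Ifng under 0.7 CPM.

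The eosinophil markers summed to 7879 to 8224 CPM in the resting and 6483 to 6589 in the T2 libraries, and the neutrophil markers to 2482 to 2706 CPM in the resting and 1274 to 1331 in the T2 libraries, with 7 of 12 lower and 2 higher. Plasmacytoid dendritic cell markers summed to 116 to 131 CPM in the resting and 135 to 149.9 in the T2 libraries, with Siglech at 0 in every T2 library and at most 0.116 CPM at rest, and Ccr9 under 0.8 CPM throughout. Monocyte and macrophage markers summed to 794 to 815 CPM in the resting and 1114 to 1143 in the T2 libraries, with Csf1r at 589, 574 and 557 CPM in the resting libraries and 865, 859 and 899.7 in the T2 libraries and C1qa at most 1.47 CPM. Ltf was at 30.0, 29.0 and 30.6 CPM in the resting libraries and 22.8, 21.7 and 21.2 in the T2 libraries and Cd79a at 31.4, 27.9 and 25.5 CPM in the resting libraries and 22.9, 21.0 and 23.8 in the T2 libraries. The part of neutrophil and other cells in the falls of the members was not tested.

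In bone marrow, Rsad2, Ifit3, Slfn5, Irf7, Zbp1, Oas3 and Samhd1 were higher in eosinophils than in GMPs, and Gbp3 and Ifi203 were lower, also with library totals. Of these, only Irf7, Oas3, Samhd1, Rsad2 and Gbp3 kept the call in every fit that left out 1 library. 11 of 40 members were higher and 2 lower in eosinophils than in GMPs, beside 13% and 6.78% of 12214 genes. The median log2 fold change was 0.75 over the members and 0.01 over all genes. The direction of the smaller differences depended on the scaling. The 40 genes took 0.131% to 0.139% of all counts in eosinophils and 0.129% to 0.141% in GMPs, ranges that overlap, and the TMM factors were 0.689 to 1.008 in eosinophils and 1.137 to 1.208 in GMPs. With library totals and no scaling factors, an alternative added after the data were seen, 7 members were higher and 4 lower, the split over all genes went from 1585 higher and 828 lower to 982 and 1457, and the median of all genes was -0.41. By deposited TPM, 17 members had the higher mean in eosinophils and 23 in GMPs. With TMM scaling the libraries did not overlap in 22 members, 19 of them higher and 3 lower, beside 23.7% and 24.7% of all genes. By deposited TPM that split was 8 higher and 14 lower, and the median log2 ratio of the means was -0.28. The shares over all genes were not worked out by TPM. An unadjusted p under 0.05 was met by 18 members and by 36.0% of all genes.

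Irf7 was at 24.5, 34.7 and 24.97 CPM in the eosinophil libraries and 2.13, 2.31 and 3.51 in the GMP libraries. Oas3 was at 30.0, 38.0 and 24.0 CPM in the eosinophil libraries and 6.34, 4.84 and 5.24 in the GMP libraries. Samhd1 was at 204, 264 and 408 CPM in the eosinophil libraries and 50.2, 53.1 and 59.7 in the GMP libraries. The lowest eosinophil library of each gene was well above the highest GMP library, and they changed by 3.40 (SE 0.35, adjusted p = 0.00136), 2.48 (SE 0.29, adjusted p = 0.00233) and 2.43 (SE 0.28, adjusted p = 0.00218). Rsad2 was at 9.30, 12.1 and 29.9 CPM in the eosinophil libraries and 0.721, 0.801 and 0.607 in the GMP libraries, with eosinophil library 3 highest. Ifit3 was at 12.4, 10.7 and 3.14 CPM in the eosinophil libraries and 0.751, 0.0640 and 0.351 in the GMP libraries, with eosinophil library 3 lowest of its group. The rises were 4.58 (SE 0.60, adjusted p = 0.00347) for Rsad2 and 4.47 (SE 1.00, adjusted p = 0.0242) for Ifit3. Zbp1 was at 6.39, 9.63 and 20.3 CPM in the eosinophil libraries and 1.05, 1.09 and 1.76 in the GMP libraries. Slfn5 was at 10.6, 11.6 and 66.6 CPM in the eosinophil libraries and 1.35, 3.08 and 2.62 in the GMP libraries. Isg15 was at 2.40, 5.22 and 4.49 CPM in the eosinophil libraries and 0.420, 0.577 and 0.990 in the GMP libraries. These rose by 3.22, 3.65 and 2.60, and Slfn5 in eosinophil library 3 was over 5 times the other 2.

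Oasl2 was at 18.5, 22.7 and 10.2 CPM in the eosinophil libraries and 6.25, 4.39 and 6.07 in the GMP libraries. Igtp, of the interferon-inducible GTPases, was at 35.5, 42.3 and 53.6 CPM in the eosinophil libraries and 19.5, 18.5 and 26.9 in the GMP libraries. Cmpk2 was at 58.1, 60.7 and 71.1 CPM in the eosinophil libraries and 35.7, 38.9 and 35.4 in the GMP libraries. The eosinophil libraries were all higher on this scale, and these genes rose by 1.62, 1.02 and 0.79. These 3 calls and that of Isg15 were lost with library totals (1.26 for Oasl2, 0.56 for Igtp, 0.35 for Cmpk2 and 2.15 for Isg15). By deposited TPM the mean of Igtp was 23.6 in eosinophils and 24.4 in GMPs and that of Cmpk2 was 21.5 and 25.4, with overlapping libraries, so no direction is given for these 2 beyond the TMM scale. Gbp3 and Ifi203 were the 2 that fell. Gbp3 was at 13.5, 21.6 and 17.2 CPM in the eosinophil libraries and 114, 124 and 125 in the GMP libraries. Ifi203 was at 19.4, 11.6 and 26.1 CPM in the eosinophil libraries and 58.3, 78.3 and 58.1 in the GMP libraries. GMPs held several times the eosinophil level of both, with changes of -2.80 (SE 0.22, adjusted p = 0.000508) and -1.77 (SE 0.33, adjusted p = 0.0124). The other 27 members did not pass the threshold, from -0.87 for Parp14 to 2.13 for Oas2, and Oas2 was at 0 in eosinophil library 3 against 3.56 and 6.56 CPM in the other 2.

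**Figure D5:**
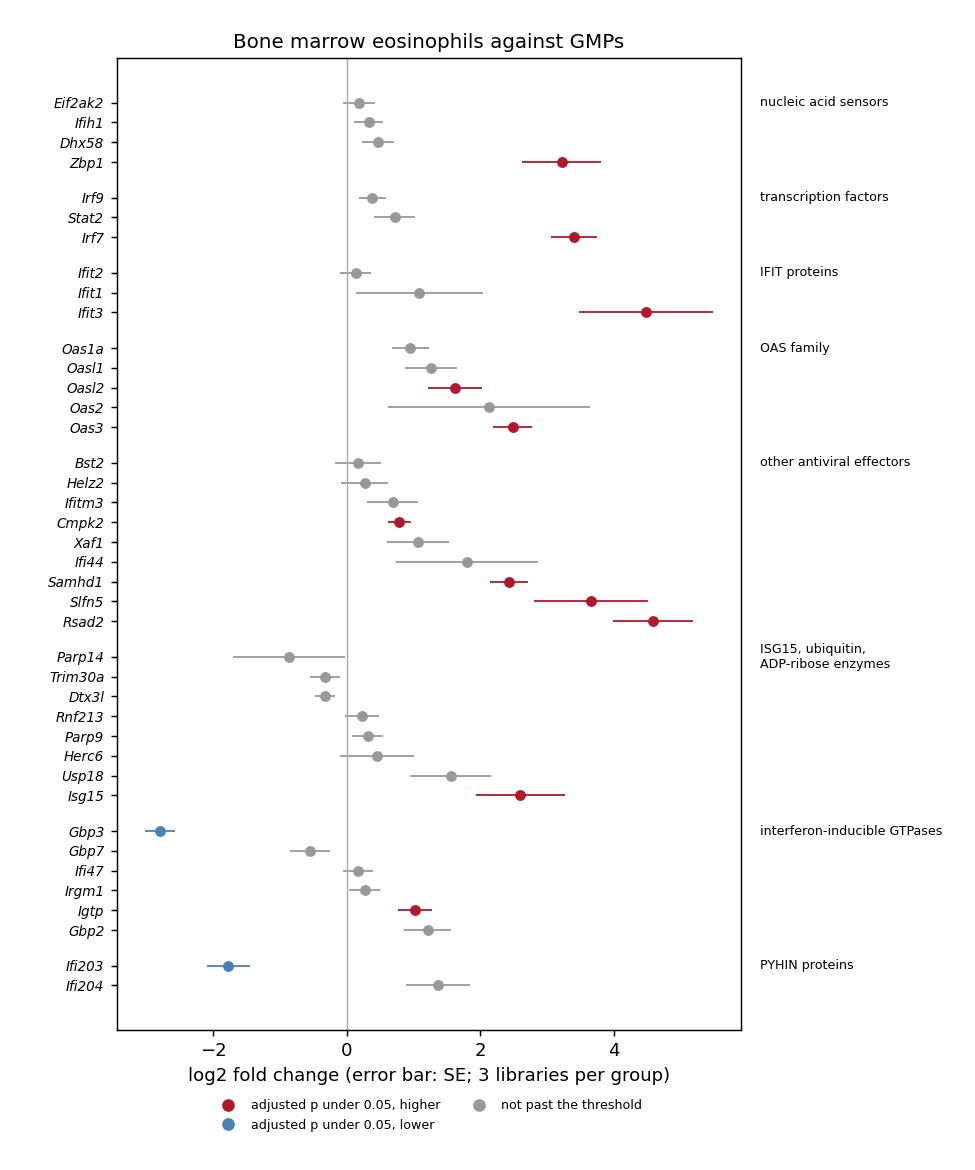
Points give the log2 fold change of each of 40 members in bone marrow eosinophils against GMPs with its SE, by role; red passed the threshold as higher, blue as lower and grey did not pass. Rsad2 and Ifit3 lie furthest right and Gbp3 furthest left, and error bars are widest for Oas2, Ifi44, Ifit3 and Ifit1.

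Calls in this comparison rested on few libraries: the 11 higher members became 6 without eosinophil library 2 and 4, 4 and 5 without GMP library 1, 2 or 3, and 16 without eosinophil library 3. The 2 lower members became 4 without eosinophil library 3 and 1 without GMP library 1 or 2. Irf7, Oas3, Samhd1, Rsad2 and Gbp3 were called in every such fit. Without eosinophil library 3, the uncalled Bst2, Ifi44 and Ifi47 changed sign to -0.31, -0.31 and -0.05.

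Of 57 further interferon-stimulated genes 17 rose and 3 fell, with the rises led by Slfn1 (7.99), Gbp8 (6.49), Ifi27l2a (5.03) and Rtp4 (4.78). The shares of all genes called higher and lower in this comparison, given above beside the members, also stand beside these counts. They stand beside the marker lists below as well. Irf8, a factor of the monocyte lineage, fell by 3.65. Irf1 (0.38), Ifnar1 (-0.84) and Ifngr1 (0.39) did not pass the threshold, while Ifnar2 fell by 0.61 and Jak1 rose by 0.67. Of the sensors, Ddx58, encoding RIG-I, and Tlr7 rose by 3.35 and 2.48, and Unc93b1 fell by 0.96. Ifnb1 had no more than 0.0363 CPM, and Ifng was not in this table.

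The eosinophil libraries also held markers of other cells, whose part in these differences was not tested. Neutrophil markers summed to 33270 to 198100 CPM in eosinophil and 77.5 to 109.8 in GMP libraries, and all 12 were higher. Ltf was at 4659, 7365 and 6143 CPM in the eosinophil libraries and 8.47, 7.72 and 11.5 in the GMP libraries. B cell markers summed to 333 to 710.4 CPM in eosinophil and 40.0 to 56.4 in GMP libraries, with Cd79a at 284, 113 and 106 CPM in the eosinophil libraries and 0.1802, 0.288 and 0.192 in the GMP libraries. C1qa, a macrophage gene, was at 322, 186 and 315 CPM in the eosinophil libraries and 0.391, 0.609 and 0.319 in the GMP libraries, while Csf1r, another, was at 232, 158 and 145 CPM in the eosinophil libraries and 566, 559 and 587 in the GMP libraries. Plasmacytoid dendritic cell markers summed to 166 to 293 CPM in eosinophil and 256 to 291 in GMP libraries, with Siglech at 5.05, 3.49 and 2.86 CPM in the eosinophil libraries and 0, 0.448 and 0.256 in the GMP libraries and Ccr9 at most 2.07 CPM. Eosinophil markers summed to 20570 to 37210 CPM in eosinophil and 123 to 284 in GMP libraries, so defining markers of the labelled cell type were present. Progenitor markers summed to 39690 to 62860 CPM in eosinophil and 51340 to 61610 in GMP libraries, ranges that overlap.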

How the data were processed

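RNA-seq was made from 21 libraries of WT mouse cells, with poly(A) RNA captured by oligo(dT), per the labels' protocols. The submitters' processing notes name fastp 0.18.0, Bowtie2 2.2.8, HISAT2, StringTie 1.3.1, RSEM and the mm10 build, without order or role. The authors deposited expected counts and TPM per Entrez gene for the BMDE table and the eosinophil and GMP table, and counts and FPKM per Ensembl gene for the T2 table. Expected counts were rounded to whole numbers before testing; the deposited TPM were used for levels per length and the deposited FPKM were not tested. No column of per-sample values was left without a sample (0 columns).

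Each table was fitted alone with edgeR 4.0.16 in R 4.3.3: filterByExpr, TMM scaling, quasi-likelihood F tests and Benjamini-Hochberg adjustment over all genes tested, with calls at an adjusted p under 0.05. The 3 BMDE arms shared 1 fit. CPM are counts divided by the TMM-scaled library size. The fits were also run on simulated counts, drawn from a common mean profile with known changes and no transcript length trend. That run says nothing on the libraries that leaned with transcript length. DESeq2 1.42.0, other scalings, no low-count filter, library totals with no scaling factors (added after the data were seen), fits on the compared groups only, replicate blocks and leaving out each library were tried as alternatives. 

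The members, the pathway and marker lists and their tests were chosen with earlier results of these data known. Members given by library were the called member with the largest change in each role and up to 10 further called members by size of change, ranked in BMDEs on FAC against DFO; pathway genes were a fixed few and up to 4 called per list, and some of these are not reported here. Promoter windows were taken from RefSeq (GRCm38.p6); the 6 printed and the split of FAC library 6 by transcript length were chosen after values were seen. Precision is limited by 2 to 4 libraries per group. Genes with close copies (the IFIT, OAS, Schlafen, GBP and PYHIN families) have uncertain counts, since shared reads were divided between copies or could be.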

Additional observations from a re-analysis of the deposited data

How the results depend on the processing

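FAC against DFO gave 39 or 40 lower members under every alternative, and the DFO, control, FAC order held in 38 to 40. The counts against control were less stable. For DFO against control, the 18 higher members became 38 and the 1460 calls over all genes became 5982 when only the compared groups were fitted; leaving out 1 library gave 3 to 38 members and 217 to 4899 genes. For FAC against control, the 19 lower members became 6 and the 761 calls over all genes became 116 in that fit; the DESeq2 Wald test gave 1300 genes and leaving out 1 library gave 3 to 39 members and 76 to 2728 genes. For FAC against DFO, leaving out 1 library gave 39 to 40 members and 4250 to 7855 genes against 6079. For eosinophils against GMPs, the 2413 calls over all genes became 4055 with DESeq2 and 747 to 4623 without 1 library, with 4 to 16 members higher and 1 to 4 lower. In T2 against resting eosinophils leaving out 1 library gave 22 to 24 lower and 6 to 7 higher members; Usp18, Trim30a and Oas3 lost their calls in some alternatives. The cause was not tested for any of these shifts.

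Members that changed direction were all uncalled with TMM scaling. They were Ifi44 (-0.311), Ifi47 (-0.051) and Bst2 (-0.306) in eosinophils against GMPs without eosinophil library 3, the low ends of leave-one-out ranges that reached 2.248, 0.315 and 0.36. In T2 they were Parp9 (-0.09 with upper-quartile scaling, -0.031 without T2 library 2, at most 0.078 without another), Irgm1 (-0.077 with upper-quartile scaling) and Oas1a (-0.017 without resting library 2, at most 0.542 without another). In DFO against control it was Gbp7 (0.046 without control library 2, 0.004 without DFO library 9, as low as -0.058 without another). With library totals and no scaling factors, chosen after seeing the data, 7 members were higher and 4 lower in eosinophils against GMPs, and the sign changed there for Ifih1 (-0.101), Irf9 (-0.079), Irgm1 (-0.118), Rnf213 (-0.207), Ifi47 (-0.299), Helz2 (-0.113), Bst2 (-0.337), Eif2ak2 (-0.253), Ifit2 (-0.311) and Parp9 (-0.135). In T2 it changed for Irf7 (-0.06), Parp9 (-0.19) and Irgm1 (-0.178), the last 2 then called lower, and in DFO against control for Gbp7 (0.033).

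Libraries with the same replicate number did not deviate together: the correlations were 0.017, -0.035 and 0.17 for eosinophils and GMPs and -0.024, -0.02 and 0.008 for T2 and resting eosinophils. With the replicate block, 7 members were higher and 1419 genes were called in eosinophils against GMPs, and 6 members were higher and 24 lower with 8498 genes called in T2. No paired analysis was possible because the BMDE groups share no replicate numbers. At low depth, Ifi44 in T2 and the interferon genes in all tables could not be tested.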
